A study of Mus musculus with 2 samples.

Results

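The expression of 10 fibroblast growth factor (FGF) genes was followed across the cell types of the newborn mouse kidney. They are 7 secreted ligands (Fgf1, Fgf2, Fgf7, Fgf8, Fgf9, Fgf10 and Fgf20), 2 receptor tyrosine kinases (Fgfr1 and Fgfr2) and Fgfrl1, a receptor-like protein without a kinase domain. The genes were selected by symbol, and all 10 were found among the 32285 genes of the count matrices. The data are single-cell RNA-seq counts from kidneys at postnatal day 0, in 2 libraries. Both carry the genotype label Rbpj c/+ ; Foxd1cre/+, read as heterozygosity for a conditional Rbpj allele in mice with Cre under the control of Foxd1. Rbpj encodes the nuclear effector of Notch signalling, and Foxd1 is a gene of stromal progenitors. The cells in which the conditional allele was lost were not determined here. Every value describes this genotype, with n = 2, and libraries of other genotypes were not analysed here, so its effect was not tested. The labels do not say whether the libraries came from separate animals or from pools. The p-values thus measure only the spread between these 2 libraries, which may be technical, with the estimate of spread shared across genes.

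FGF ligands bind receptor tyrosine kinases together with heparan sulfate, and the active receptor signals through docking proteins, Ras and MAP kinases to transcription factors of the ETS family. The same pathway induces its own inhibitors, among them the Sprouty, Spred and Dusp proteins. In the developing kidney, Fgf9 and Fgf20 are known to maintain nephron progenitors, Fgf8 is needed by the cells that form the first epithelial nephron structures, Fgf7 and Fgf10 signal through Fgfr2 to the branching ureteric epithelium, and Fgfr1 and Fgfr2 act in the nephron lineage. Alternative exons give Fgfr1 and Fgfr2 an epithelial and a mesenchymal form that bind different ligands. The libraries count the 3′ ends of transcripts, so these forms could not be told apart.

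Replicate 1 held 200331687 UMIs (unique molecular identifiers, each counting 1 captured transcript) and replicate 2 held 173166168 UMIs. Barcodes that reached 3000 UMIs and 500 genes with no more than 20% of UMIs from mitochondrial genes numbered 5529 and 4206, and the 2 sets shared 6 barcode sequences. After removal of likely doublets, 5284 and 4064 cells remained. Cells were assigned to classes by a gate on 145 marker genes that include no FGF gene. The gate assigned 4490 and 3490 cells and left 794 and 574 unassigned. The 14 classes with at least 20 cells in each library entered the tests. In none of them did the 10 leading genes include a marker of another type. The gate used the same markers, so this is no independent check of the classes. No cells passed the gates for glial or neural and for adrenal markers. Levels are given as UMIs per 1000000 UMIs of a class (CPM), replicate 1 before replicate 2. Free RNA, from barcodes with under 100 UMIs, is given in the same unit as a reference. That value is a share of the free RNA and not its amount in a cell. A class below it can therefore still express the gene. Counts of 3′ ends are not levels per length of transcript, so levels were compared between classes and not between genes. Some classes also held markers of another type. Ureteric tip cells had 1200 and 994 CPM of summed distal tubule markers, beside 1450.6 and 1184.5 CPM of their own markers. Positions are those of GRCm38, the build mm10 of the submitters' processing notes.

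In the gated cells the members had from 293 UMIs (Fgf7) to 37929 UMIs (Fgfr2), and all 10 passed the minimum of 20 UMIs. Each class was set against all other gated cells. Of 140 such tests of members, 26 were called higher and 79 lower, at an adjusted p under 0.05 in edgeR's quasi-likelihood test. Over all genes, 18.8% of the tests were called higher and 24.6% lower. Between pairs of classes, members differed in 495 of 910 tests, beside 37.4% of all tests of this kind. Nephron progenitors had 6 members higher and 1 lower, where 27.1% of all genes were called higher and 32.4% lower. Early nephron cells, the committing cells and first epithelial structures, had 5 members higher and 4 lower, where 24.2% of all genes were called higher and 29.4% lower. Ureteric tip cells had 4 higher and 5 lower, beside 14.7% and 22.5% of all genes, and stroma had 2 higher and 6 lower, beside 23.5% and 29.6%. Intercalated, endothelial, immune and erythroid cells had no member called higher, beside 13.2%, 24.8%, 15.4% and 2.72% of all genes. As a reference level, pooled cells are dominated by the classes that express a gene most. With the plain average of the other classes as reference, 58.3% of the calls of members were higher, and 24.8% were higher against the pooled cells.

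**Figure D1:**
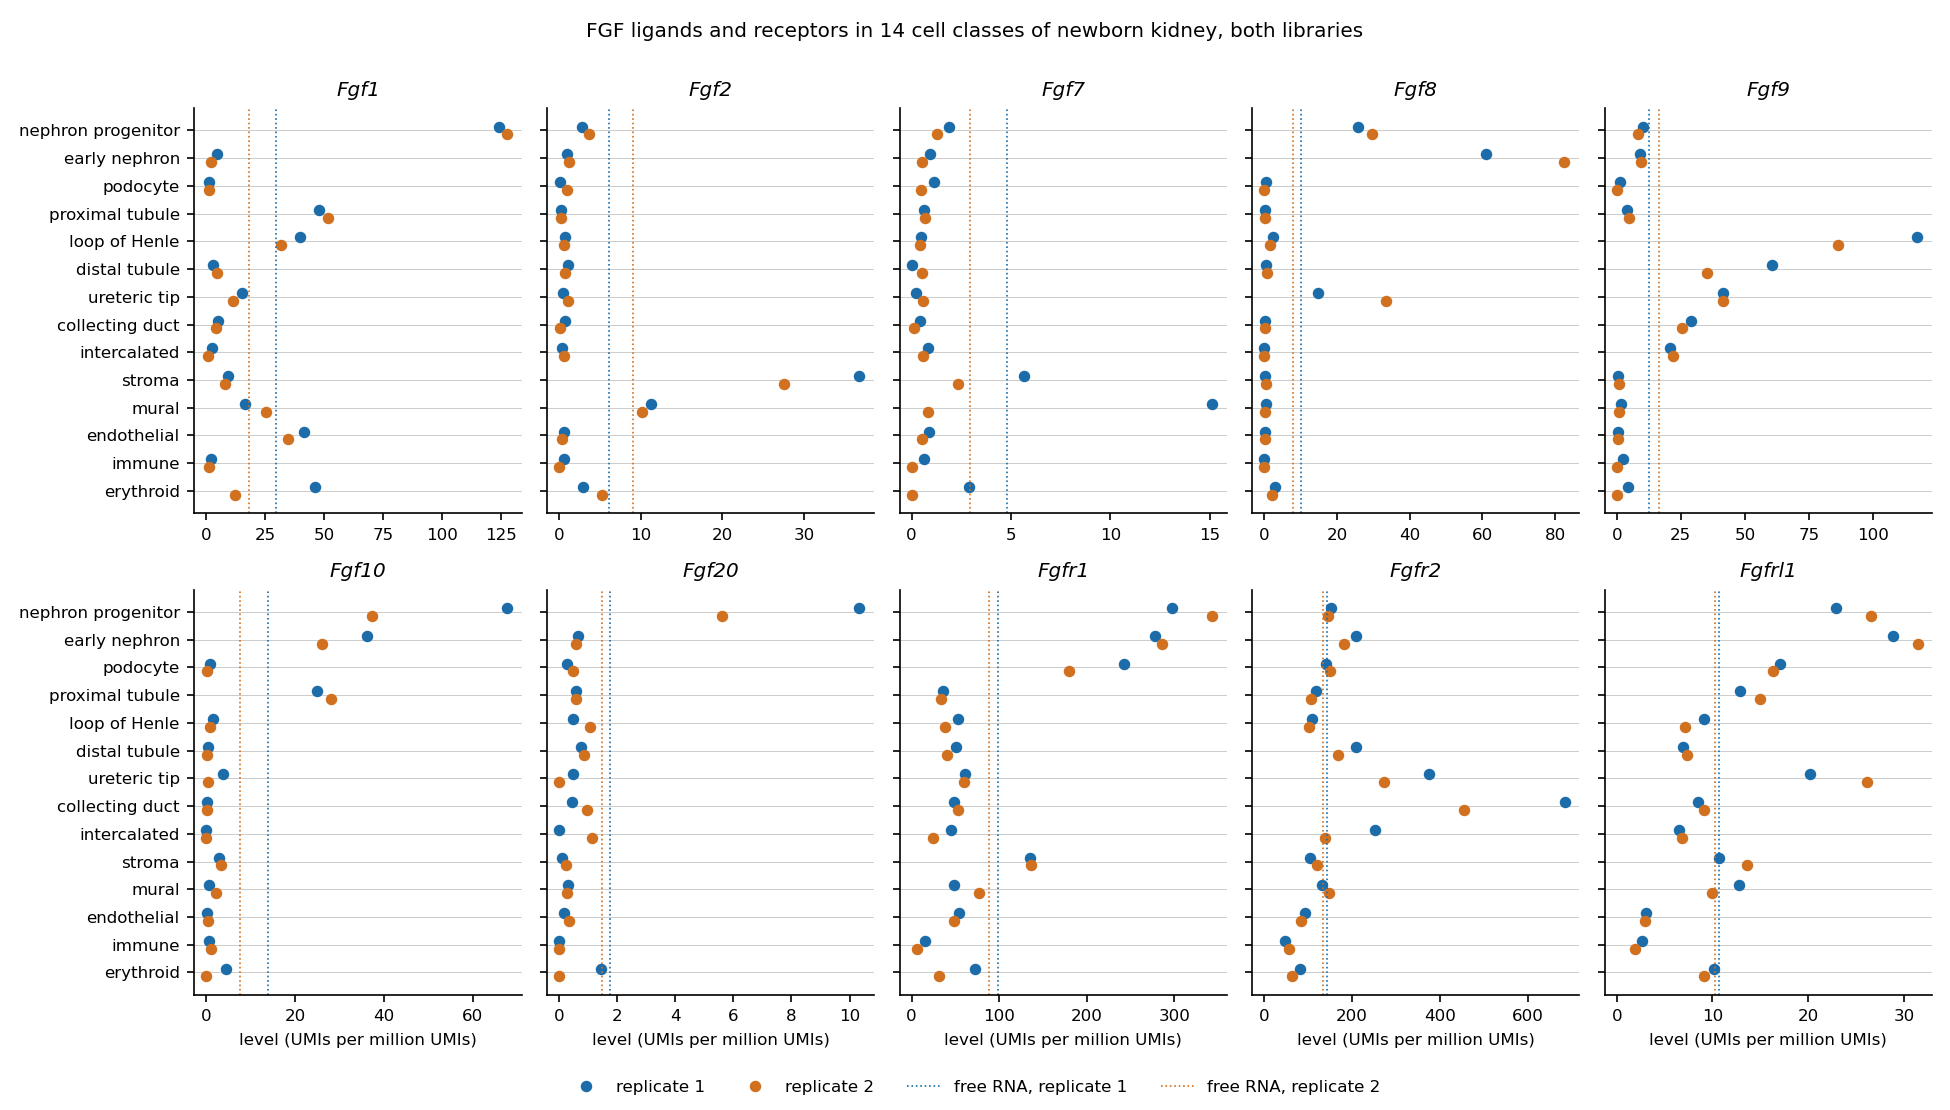
Level of each of the 10 genes (horizontal axis, UMIs per 1000000 UMIs) in 14 cell classes (vertical axis). Points are the 2 libraries, and dotted lines give the level in barcodes with under 100 UMIs, which hold free RNA. Fgf1, Fgf10 and Fgf20 were highest in nephron progenitors, Fgf8 in early nephron cells, Fgf9 in the loop of Henle, Fgf2 in stroma and Fgfr2 in collecting duct.

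Fgf8 (ENSMUSG00000025219, chr19:45736798-45742915, minus strand) was a ligand of the early nephron, at 60.9 and 82.6 CPM (71.8 ± 15.3, SD, n = 2) from 1008 and 824 UMIs. Nephron progenitors followed at 25.7 and 29.6 CPM. Both libraries of the early nephron lay above both libraries of every other class. The level in early nephron cells was higher than in the other cells by 3.61 on the log2 scale (SE 0.12, edgeR adjusted p = 2.8e-16). It was also higher than in nephron progenitors, by 1.3 (SE 0.21, edgeR adjusted p = 6.7e-05), and nephron progenitors in turn were above the other cells by 1.45 (SE 0.11, edgeR adjusted p = 6.4e-06). Loop of Henle cells held 2.41 and 1.66 CPM. Intercalated and immune cells held 0 UMIs in both libraries. Taking 3 counts over both libraries as the limit that a count of 0 allows, the level was at least 19.6-fold lower in intercalated and at least 12-fold lower in immune cells than in the other cells.

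Among finer clusters, which also take in cells that the gate left out, the highest Fgf8 level was in cluster 34, with Sox9, Bmp2, Sim1 and Lgr5 among its leading genes, at 117 and 133 CPM from 521 and 656 UMIs. The gate had put 54 cells of this cluster in the early nephron, 19 in the distal tubule and 12 in the loop of Henle, and had left 59 unassigned. Cluster 16, led by Lhx1 and Wnt4, the inducer of the mesenchymal to epithelial transition, had 55.7 and 53.2 CPM from 493 and 240 UMIs. The progenitor cluster 6, led by Cited1 and Crym, had 35.8 and 42.8 CPM. Cluster 34 thus stood above the Wnt4-led cluster in both libraries. An Fgf8 UMI was found in 25.3% and 36.1% of early nephron cells, and in 13.2% and 16.5% after every cell was reduced to 3000 UMIs. The median depths of this class were 23590 and 36370 UMIs. Immune cells, at median depths of 9882 and 10060 UMIs, had an Fgf8 UMI in 0 of 140 and 0 of 80 cells (exact 95% upper bounds of 2.60% and 4.51%).

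Ureteric tip cells had 14.8 and 33.6 CPM of Fgf8, above the other cells by 0.77 (SE 0.22, edgeR adjusted p = 0.0075), with 0.07 in replicate 1 and 1.33 in replicate 2. This level rested on few cells, and with classes taken from clusters in place of the gate the difference was -1.06 (edgeR adjusted p = 0.039). In each library 4 tip cells held any Fgf8, of 59 and of 39 cells. The 2 cells with most Fgf8 held 58 of 60 UMIs in replicate 1 and 115 of 117 in replicate 2. These cells were deep, with 79965 and 148227 UMIs in replicate 1 and 204100 and 281099 in replicate 2, beside tip medians of 46775 and 39071. Both cells of replicate 2 lay in a cluster named early nephron. In the other tip cells the level was 0.522 and 0.667 CPM, below that of free RNA at 10.3 and 7.86 CPM. Summed early nephron markers over all tip cells were 263 and 280 CPM, beside 348 and 325 CPM in proximal tubule and 248 and 158 in distal tubule. These sums cover whole classes and do not describe the 2 tip cells with most Fgf8. The part of cells carrying 2 types in the Fgf8 level was not tested.

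Fgf10 (ENSMUSG00000021732, chr13:118669791-118792115, plus strand), a ligand known for its part in ureteric branching and in lung and limb budding, was highest in nephron progenitors, at 67.6 and 37.4 CPM (52.5 ± 21.4, SD, n = 2) from 1401 and 554 UMIs. Early nephron cells had 36.2 and 25.9 CPM and proximal tubule cells 24.9 and 28.2 CPM. The libraries differed most in nephron progenitors, and replicate 2 there was close to replicate 1 of the early nephron. Against the other cells the level was higher by 2.57 in nephron progenitors (SE 0.11, edgeR adjusted p = 2.6e-07), by 1.23 in early nephron cells (SE 0.12, edgeR adjusted p = 7.3e-09) and by 1.25 in proximal tubule cells (SE 0.21, edgeR adjusted p = 0.00028). In proximal tubule cells the libraries gave 0.65 and 1.80. Nephron progenitors exceeded early nephron cells by 0.80 (SE 0.26, edgeR adjusted p = 0.029), a call that was lost under 5 of the alternatives. Early nephron and proximal tubule cells did not differ beyond their spread (edgeR adjusted p = 0.87), and proximal tubule exceeded stroma, the next class, by 3.30 (edgeR adjusted p = 1.7e-08).

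The nephron lineage cells that held Fgf10 were spread over several clusters. Cluster 39, early nephron cells led by Stxbp5l, Cdh6 and Osr2, had 78.0 and 61.3 CPM. The progenitor cluster 3 had 70.6 and 42.0 CPM and the proximal cluster 24 had 42.3 and 35.4 CPM. Stroma as a class had 2.78 and 3.27 CPM, under the free RNA level of 14 and 7.61 CPM. Within the stroma, cluster 36, led by Clec3b and Mfap5, had 14.6 and 57.7 CPM from 12 and 30 UMIs in 74 and 32 cells. Replicate 1 was at the free RNA level there, and in replicate 2 a single stroma cell held 21 of the 43 Fgf10 UMIs of the gated stroma. Intercalated cells held 0 UMIs, at least 24.0-fold lower than the other cells.

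Fgf20 (ENSMUSG00000031603, chr8:40279166-40308331, minus strand) was low, and most of its UMIs were in nephron progenitors, at 10.3 and 5.60 CPM (7.97 ± 3.35, SD, n = 2) from 214 and 83 UMIs, of 393 in all gated cells. The other fitted classes held at most 1.44 CPM in either library, below free RNA at 1.74 and 1.47 CPM. Fgf20 was the only member for which nephron progenitors alone were above free RNA in both libraries. Against the other cells nephron progenitors were higher by 4.07 (SE 0.34, edgeR adjusted p = 1.2e-05; 2.56 in replicate 2 alone), and by 3.19 against distal tubule, the next class (SE 0.63, edgeR adjusted p = 0.00020). The Cited1-led cluster 6 had 16.1 and 6.36 CPM and cluster 3 had 10.9 and 6.41 CPM.

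Fgf1, a ligand that lacks a classical signal peptide and binds all FGF receptors, had 124 and 128 CPM in nephron progenitors (126 ± 2.33, SD, n = 2), from 2573 and 1890 UMIs. Early nephron cells, their descendants, had 4.41 and 1.90 CPM, and podocytes 1.12 and 0.947 CPM. Nephron progenitors were higher than the other cells by 2.68 (SE 0.083, edgeR adjusted p = 4.0e-08), and early nephron cells were lower by 3.58 (SE 0.16, edgeR adjusted p = 4.7e-14). Podocytes were lower by 5.13 (SE 0.28, edgeR adjusted p = 4.3e-24). An Fgf1 UMI was found in 66.6% and 74.3% of nephron progenitors and in 12.7% and 10.1% of early nephron cells, at median depths of 18380 and 25070 against 23590 and 36370 UMIs. After reduction to 3000 UMIs per cell the shares were 26.7% and 29.4% of nephron progenitors, and 1 of 395 and 0 of 158 early nephron cells (exact 95% upper bounds of 1.40% and 2.31%). The lower share thus lay in the deeper class.

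Fgf1 was also found in mature tubule and in vessels. Proximal tubule had 47.6 and 51.4 CPM, endothelium 41.4 and 34.7 CPM and loop of Henle 39.9 and 31.6 CPM. Nephron progenitors exceeded the proximal tubule by 1.15 (SE 0.22, edgeR adjusted p = 0.00011). Proximal tubule and endothelium did not differ beyond their spread (0.52, edgeR adjusted p = 0.054), nor did endothelium and loop of Henle (0.09, edgeR adjusted p = 0.77). Of these, the proximal tubule was called higher than the other cells, by 0.79 (SE 0.11, edgeR adjusted p = 3.4e-05). The pooled endothelium hid a contrast, because cluster 10, led by Ehd3, a gene known in glomerular endothelium, had 198 and 151 CPM in 51 and 19 cells. That was near the 188 and 192 CPM of the progenitor cluster 3, led by Nell1 and Btbd11. In the loop of Henle the Umod-led cluster 1 had 75.0 and 50.3 CPM.

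Fgf9 (ENSMUSG00000021974, chr14:58070547-58112720, plus strand), a ligand known to act on mesenchyme, was highest in the loop of Henle, at 117 and 86.4 CPM (102 ± 21.7, SD, n = 2) from 1648 and 1195 UMIs. Distal tubule had 60.5 and 35.2 CPM, ureteric tip 41.6 and 41.4, collecting duct 29.0 and 25.6, and intercalated cells 20.8 and 22.0. The highest levels thus covered the tubule from the loop onward and the ureteric epithelium. These 5 classes alone were above free RNA at 12.6 and 16.5 CPM in both libraries. Nephron progenitors had 10.1 and 8.37 CPM and early nephron cells 9.19 and 9.52 CPM. The Fgf9 UMIs of nephron progenitors, 209 and 124, came from 109 of 634 and 68 of 350 cells. Against the other cells the loop of Henle was higher by 3.54 (SE 0.12, edgeR adjusted p = 4.7e-07), distal tubule by 1.37 (SE 0.17, edgeR adjusted p = 1.1e-14), ureteric tip by 0.99 (SE 0.14, edgeR adjusted p = 5.2e-06) and collecting duct by 0.48 (SE 0.13, edgeR adjusted p = 0.019). Nephron progenitors were lower by 1.21 (SE 0.11, edgeR adjusted p = 2.5e-05).

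In the order of Fgf9 levels, the loop of Henle exceeded the distal tubule by 1.16 (SE 0.24, edgeR adjusted p = 0.0012), a call that DESeq2 did not make (adjusted p = 0.12). Distal tubule and ureteric tip (edgeR adjusted p = 0.39), ureteric tip and collecting duct (0.15), and collecting duct and intercalated cells (0.47) did not differ beyond their spread. Intercalated cells exceeded early nephron cells by 1.22 (edgeR adjusted p = 0.0024). The intercalated class also had 2274 and 1217 CPM of summed distal tubule markers and 1946 and 1292 CPM of collecting duct markers. Their part in the Fgf9 level of intercalated cells was not tested. Cluster 35, loop of Henle cells led by Pappa2 and Cldn16, genes of the macula densa and the thick limb, had 161 and 110 CPM. The Umod-led cluster 1 had 114 and 73.5 CPM, and cluster 40, led by the thiazide-sensitive cotransporter gene Slc12a3, had 86.3 and 44.1 CPM. Replicate 1 was the higher library in each of these 3 clusters.

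**Figure D2:**
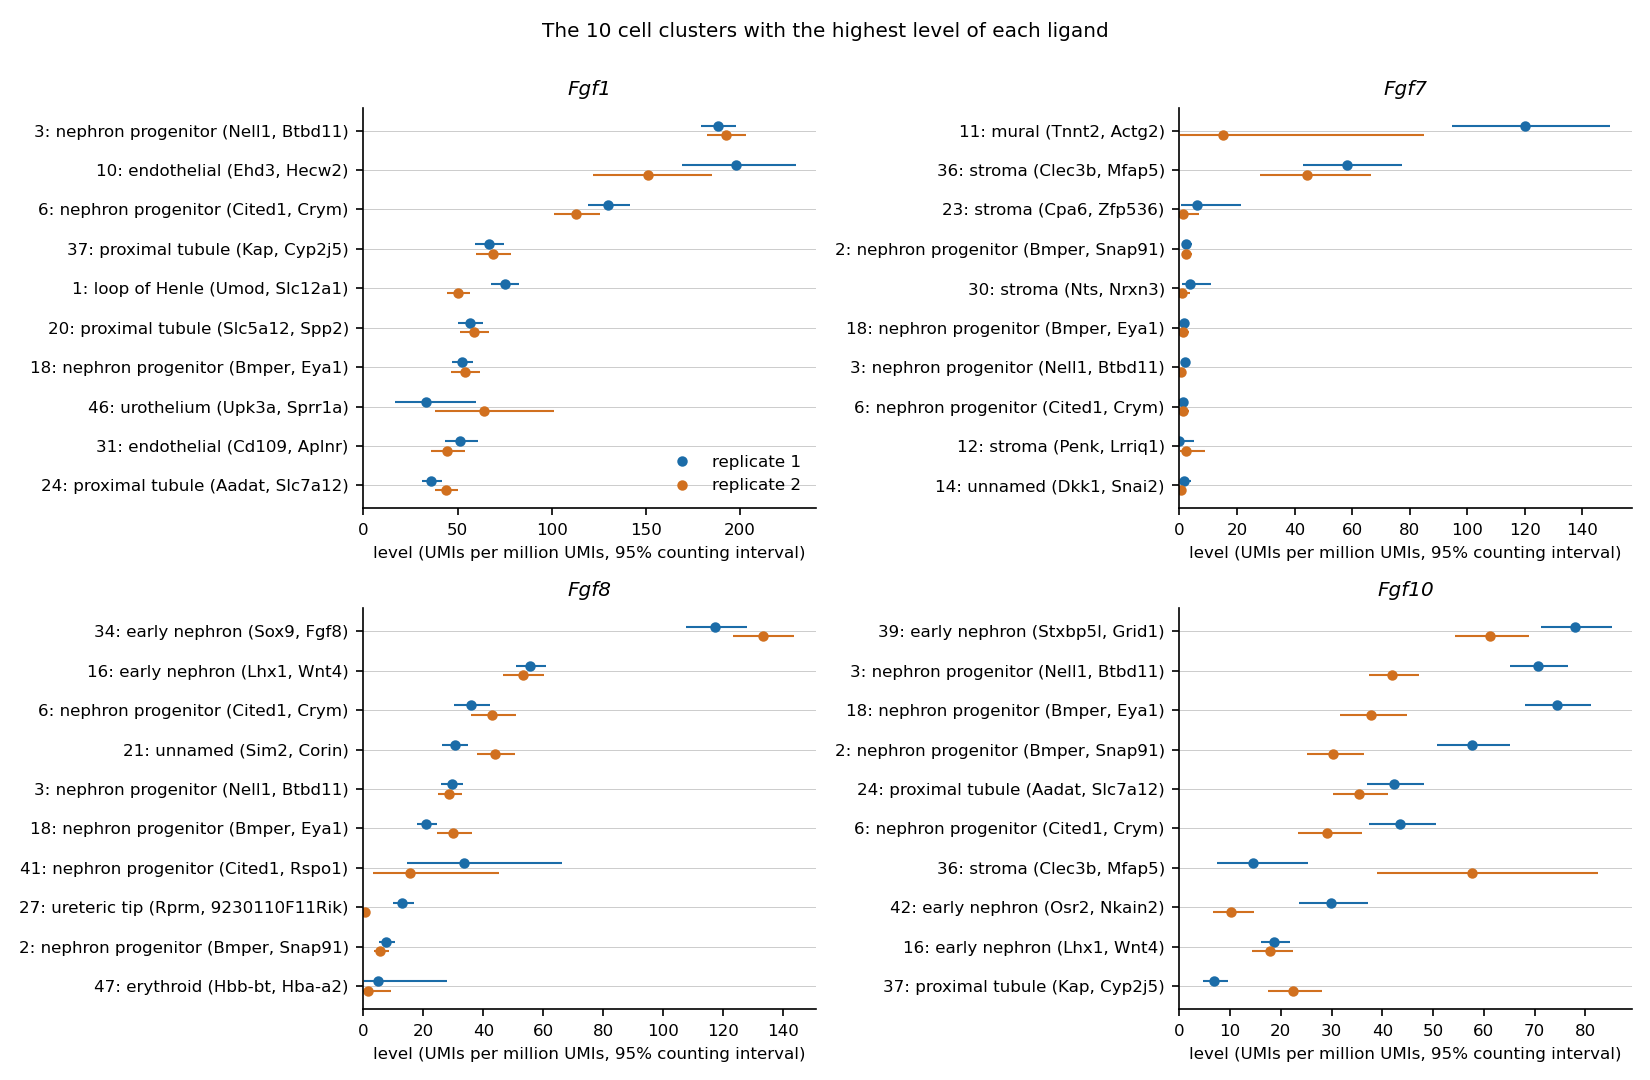
Level of Fgf1, Fgf7, Fgf8 and Fgf10 (horizontal axis, UMIs per 1000000 UMIs) in the 10 clusters with the highest mean level of each, with the class name and 2 leading genes of each cluster. Points are the 2 libraries and bars are 95% exact Poisson intervals, which cover counting error only. Fgf7 had 120 and 15.2 CPM in cluster 11, and 58.2 and 44.2 CPM in cluster 36.

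Fgf2 (ENSMUSG00000037225, chr3:37348346-37410108, plus strand), an exported ligand without a classical signal peptide, was a gene of the interstitium, with 36.8 and 27.6 CPM in stroma (32.2 ± 6.51, SD, n = 2) from 357 and 362 UMIs. Mural cells, the smooth muscle cells, pericytes and renin cells of the vessels, had 11.3 and 10.2 CPM. Both were above free RNA at 6.11 and 9.09 CPM in both libraries, and no other class was. Stroma was higher than the other cells by 4.62 (SE 0.17, edgeR adjusted p = 6.8e-22) and mural cells by 1.42 (SE 0.29, edgeR adjusted p = 5.5e-05). Stroma exceeded mural cells by 1.60 (SE 0.27, edgeR adjusted p = 0.00019). The stroma cluster 19, with Gdnf, the ligand of Ret, among its leading genes, had 72.1 and 44.6 CPM. The strand setting of the counting is not given in the sources used here, so reads of overlapping genes on opposite strands cannot be told apart with certainty. This concerns Fgf2 (Nudt6 and Fgf2os), and also Fgf1 (Arhgap26), Fgf7 (Fam227b), Fgf10 (Gm16263), Fgf20 (Micu3), Fgfr1 (Gm16159) and Fgfr2, whose annotated span holds several genes, among them Tacc2.

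Fgf7 (ENSMUSG00000027208, chr2:126034658-126091185, plus strand), known as keratinocyte growth factor, was the scarcest member, with 205 and 88 UMIs in all gated cells. Stroma had 5.66 and 2.36 CPM from 55 and 31 UMIs and was higher than the other cells by 2.14 (SE 0.34, edgeR adjusted p = 2.1e-06). Free RNA had 4.80 and 2.95 CPM of Fgf7, and no class was above it in both libraries. Mural cells had 15.1 and 0.849 CPM from 51 and 3 UMIs. Their difference from the other cells was 2.53 (SE 0.59, edgeR adjusted p = 0.00041), with 3.22 in replicate 1 and 0.05 in replicate 2, and DESeq2 gave an adjusted p of 0.088. All 51 mural UMIs of replicate 1 came from 40 cells of cluster 11, led by Tnnt2 and by Actg2, a visceral smooth muscle gene, of which replicate 2 had 2 mural cells. Without that cluster mural cells held 0 and 3 UMIs in 225 and 197 cells, and the difference was -1.06 (edgeR adjusted p = 0.45). This alternative was chosen after seeing the data. Mural and stroma cells did not differ beyond their spread (0.81, SE 0.57, edgeR adjusted p = 0.46), and without cluster 11 the difference was -2.98 (edgeR adjusted p = 0.012), with stroma the higher.

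After cluster 11, the highest Fgf7 level was in cluster 36. These stroma cells, led by Clec3b and Mfap5, held 48 and 23 UMIs in 74 and 32 cells, at 58.2 and 44.2 CPM. The cluster also had the Fgf10 given above, 48.5 and 28.9 CPM of Fgf2 and 204 and 196 CPM of Fgfr1. The next cluster, stroma cells of cluster 23, had 5.97 and 1.20 CPM of Fgf7. Nephron progenitors had 1.88 and 1.28 CPM of Fgf7 from 39 and 19 UMIs, below free RNA.

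Promoter sequence is shown for 3 members with different profiles: Fgf9, highest in the loop of Henle, Fgf10, highest in nephron progenitors, and Fgfrl1, highest in early nephron cells. RefSeq entries on GRCm38.p6 were available for 6 of the 10 members, and the 150 bases before the listed start are given 5′ to 3′ on the gene's strand. All 3 windows lie inside the gene spans given here, so they do not lie upstream of the outermost annotated start.
Fgf9, chr14:58072536-58072685, + strand: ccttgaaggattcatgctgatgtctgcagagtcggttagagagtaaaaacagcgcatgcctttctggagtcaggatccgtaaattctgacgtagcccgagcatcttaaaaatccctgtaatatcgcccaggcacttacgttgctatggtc
Fgf10, chr13:118714549-118714698, + strand: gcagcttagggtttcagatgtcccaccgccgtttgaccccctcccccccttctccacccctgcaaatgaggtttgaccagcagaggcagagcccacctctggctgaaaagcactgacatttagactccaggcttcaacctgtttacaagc
Fgfrl1, chr5:108694079-108694228, + strand: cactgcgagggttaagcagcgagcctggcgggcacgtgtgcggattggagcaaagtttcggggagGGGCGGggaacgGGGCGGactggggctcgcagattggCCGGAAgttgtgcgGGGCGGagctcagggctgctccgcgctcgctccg
Capitals mark matches to the GC box GGGCGG, the ETS core CCGGAA, the TATA box TATAAA and the TCF core CTTTGA, searched on both strands. The Fgfrl1 window held 3 GC boxes and 1 ETS core, with 17 CpG dinucleotides and 70% G and C. The Fgf9 window had 7 CpG dinucleotides and 47.3% G and C, the Fgf10 window 2 and 56%, and neither held any of the 4 motifs. Over 32817 promoters of the same length the medians were 4 CpG dinucleotides and 54% G and C, and GGGCGG was found in 28.6%, CCGGAA in 9.22%, CTTTGA in 7.93% and TATAAA in 7.58%. A match describes these letters only and is not a measured binding site.

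Fgfr1 (ENSMUSG00000031565, chr8:25513654-25575718, plus strand), a receptor prominent in mesenchymal cells, was highest in nephron progenitors at 297 and 343 CPM (320 ± 32.4, SD, n = 2) and in early nephron cells at 278 and 286 CPM. Podocytes had 242 and 180 CPM and stroma 135 and 137 CPM. Each of these classes was above free RNA at 99.0 and 88.4 CPM, and no other class was above it in both libraries. Against the other cells nephron progenitors were higher by 1.83 (SE 0.10, edgeR adjusted p = 1.1e-06), early nephron cells by 1.42 (SE 0.096, edgeR adjusted p = 4.1e-11) and podocytes by 0.85 (SE 0.083, edgeR adjusted p = 1.8e-13). Stroma did not differ from the other cells beyond its spread (0.17, edgeR adjusted p = 0.20). Nephron progenitors and early nephron cells did not differ beyond their spread (0.25, edgeR adjusted p = 0.42), nor did early nephron cells and podocytes (0.39, edgeR adjusted p = 0.13). Podocytes exceeded stroma by 0.59 (SE 0.21, edgeR adjusted p = 0.025; 0.10 after subtraction of free RNA and 0.053 without the library block), and stroma exceeded mural cells by 1.12 (edgeR adjusted p = 0.00091). Among clusters, the progenitor cluster 3 had 384 and 417 CPM and the Wnt4-led cluster 16 had 368 and 353 CPM. Proximal tubule had 35.5 and 33.0 CPM and immune cells 15.5 and 5.66 CPM.

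Fgfr2 (ENSMUSG00000030849, chr7:130162451-133123350, minus strand) had the reverse emphasis and was highest in the ureteric lineage. Collecting duct had 685 and 454 CPM (569 ± 163, SD, n = 2), from 4746 and 3803 UMIs, and ureteric tip 375 and 273 CPM. Intercalated cells followed with 251 and 138, early nephron cells with 208 and 181 and distal tubule with 209 and 168 CPM. Replicate 1 was the higher library in all 5 classes, and both libraries of the collecting duct lay above both of the tip. Against the other cells collecting duct was higher by 2.09 (SE 0.12, edgeR adjusted p = 7.0e-06), ureteric tip by 0.96 (SE 0.092, edgeR adjusted p = 9.4e-09) and early nephron cells by 0.36 (SE 0.091, edgeR adjusted p = 0.0021). Collecting duct exceeded the tip by 0.90 (SE 0.17, edgeR adjusted p = 0.00036), and the tip exceeded intercalated cells by 0.66 (edgeR adjusted p = 0.0056). Intercalated and early nephron cells did not differ beyond their spread (0.02, edgeR adjusted p = 0.97). The intercalated class also had 1946 and 1292 CPM of summed collecting duct markers, beside 5901 and 5059 CPM in collecting duct. Their part in the Fgfr2 level of intercalated cells was not tested.

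Fgfr2 was detected in every class, and its lowest level, in immune cells, was 47.9 and 55.7 CPM. Free RNA had 142 and 135 CPM of Fgfr2, and 6 classes were above it in both libraries: the 5 named and nephron progenitors, at 152 and 144 CPM. Nephron progenitors, and intercalated cells in replicate 2 at 138 CPM from 245 UMIs, lay close to free RNA. The free RNA level itself came from 650 and 548 UMIs. Endothelium at 92.7 and 83.2 CPM was lower than the other cells by 0.84 on the log2 scale (SE 0.090, edgeR adjusted p = 1.6e-05), and stroma at 104 and 120 CPM was lower by 0.50 (SE 0.11, edgeR adjusted p = 0.00042). Among clusters, cluster 44, led by Fxyd4 and Aqp2 (the vasopressin-regulated water channel), had 860 and 659 CPM. The tip cluster 27 had 425 and 356 CPM. The stroma cluster 30, led by Nts, with Penk among its 10 leading genes, reached 283 and 357 CPM.

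Fgfrl1 (ENSMUSG00000008090, chr5:108692382-108706924, plus strand), which binds FGF ligands and is needed for nephron formation in the mouse, was above free RNA at 10.7 and 10.3 CPM in both libraries in 6 of 14 classes. In stroma, 1 of these, the level of 10.7 CPM in replicate 1 did not differ from free RNA beyond counting error. Early nephron cells had 28.9 and 31.5 CPM (30.2 ± 1.81, SD, n = 2), nephron progenitors 22.9 and 26.5, ureteric tip 20.2 and 26.1 and podocytes 17.0 and 16.3. These first 4 classes did not differ from their neighbours in the order beyond the spread (edgeR adjusted p = 0.31, 0.38 and 0.12). Early nephron cells were higher than the other cells by 1.34 (SE 0.11, edgeR adjusted p = 8.9e-10), nephron progenitors by 1.04 (SE 0.11, edgeR adjusted p = 5.4e-05) and ureteric tip by 0.63 (SE 0.18, edgeR adjusted p = 0.0069). The call in the tip was lost under DESeq2 (adjusted p = 0.13) and with classes from clusters (0.089). Endothelium, at 3.09 and 2.91 CPM, was lower by 2.27 (SE 0.18, edgeR adjusted p = 1.5e-06), and immune cells, at 2.59 and 1.89 CPM, were lower by 2.56 (SE 0.55, edgeR adjusted p = 1.6e-05). Cluster 16, the Lhx1 and Wnt4 cells that also held Fgf8, had the highest cluster level with 33.5 and 39.9 CPM.

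The stroma was divided by detected UMIs into 2 subsets. The first held at least 1 UMI of Foxd1, a gene of the outer, nephrogenic stroma. The second, called Penk-positive, held Penk, a gene of the medullary stroma, and no Foxd1 UMI. The first subset had 340 and 404 cells and the second 323 and 259. Foxd1-positive cells also held Penk, at 236 and 243 CPM, beside 974.3 and 1440.5 CPM in the second subset. The split is thus not a clean division of zones. Of the 7 members that could be tested, 2 were higher in the Foxd1-positive cells and 1 was lower, beside 11.8% of all genes called in either direction. Fgf2 had 55.0 and 35.6 CPM in Foxd1-positive and 23.7 and 18.7 CPM in Penk-positive cells, with no overlap between the groups. It was higher in Foxd1-positive cells by 1.08 (SE 0.14, edgeR adjusted p = 0.00064). Fgfr1, with 147 and 154 against 126 and 111 CPM, was higher by 0.36 (SE 0.085, edgeR adjusted p = 0.022). Fgfr2 ran the other way, with 86.7 and 84.3 against 138 and 202 CPM, and was lower in Foxd1-positive cells by 0.99 on the log2 scale (SE 0.12, edgeR adjusted p = 0.00046). Without the library block the calls of Fgf2 (edgeR adjusted p = 0.094) and Fgfr1 (0.24) were lost, and that of Fgfr1 was also lost under DESeq2 (adjusted p = 0.74), at 6000 UMIs (0.055) and under the stricter gate (0.053). Fgf7 gave -0.60 in replicate 1 and 0.96 in replicate 2 and was not called (edgeR adjusted p = 0.97). The genotype label places Cre under the control of Foxd1, so the split uses the gene that drives Cre. A count of 0 Foxd1 UMIs does not show that a cell lacks Foxd1. Loss of the conditional allele was not determined in either subset.

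**Figure D3:**
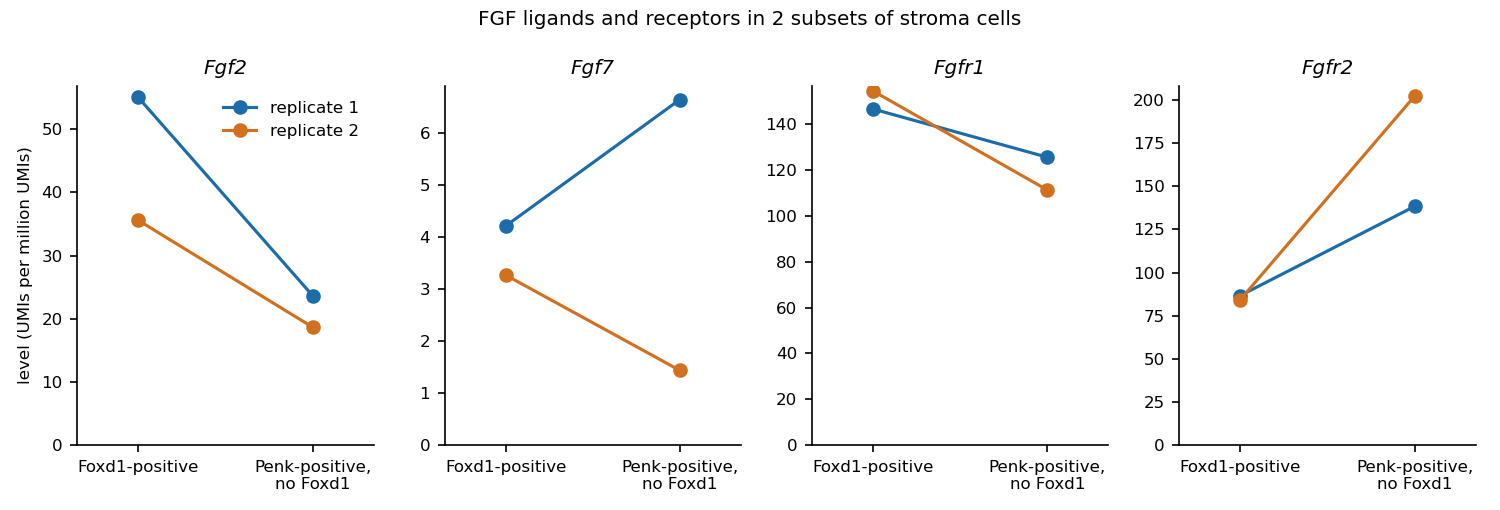
Level of Fgf2, Fgf7, Fgfr1 and Fgfr2 (vertical axis, UMIs per 1000000 UMIs, from 0) in stroma cells with a Foxd1 UMI and in stroma cells with a Penk UMI and no Foxd1 UMI. Each line joins the 2 subsets of 1 library. Both lines fell for Fgf2 and Fgfr1, both rose for Fgfr2, and the libraries went opposite ways for Fgf7.

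The wider FGF pathway was described by 8 lists with 80 genes, of which 79 were found and 72 could be tested. The lists held further ligands, intracellular FGFs, receptors and co-receptors, receptor-binding membrane proteins, heparan sulfate genes, adaptors, feedback inhibitors and transcriptional targets. Over 14 classes these genes gave 593 calls, of which 40.6% were higher. That share was 56.9% with the plain average of the other classes as reference and 31.6% without trimmed-mean scaling. Over all genes and classes, 18.8% of the tests were called higher and 24.6% lower. The ureteric tip had 8 of 10 feedback inhibitors higher and 1 lower, and 4 of 7 transcriptional targets higher and 2 lower. Of all genes, 14.7% were called higher and 22.5% lower in the tip. Spry1, a Sprouty inhibitor needed to restrain ureteric budding, had 187 and 164 CPM in the tip and was higher by 2.09 (SE 0.10, edgeR adjusted p = 4.2e-14). Spry2 had 54.4 and 55.7 CPM and was higher by 1.85 (SE 0.14, edgeR adjusted p = 1.9e-10). The ETS factor genes Etv4 and Etv5, known to act in the tip downstream of both Ret and FGF receptors, had 304 and 287 CPM and 259 and 253 CPM. They were higher by 3.18 (SE 0.096, edgeR adjusted p = 1.2e-17) and 3.14 (SE 0.10, edgeR adjusted p = 3.3e-17). Il17rd, which encodes the FGF antagonist Sef, was lower in the tip by 0.89 on the log2 scale (edgeR adjusted p = 0.00027), and Myc by 0.92 (edgeR adjusted p = 0.0013).

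The collecting duct, with the highest Fgfr2, had the opposite pattern in the same lists. It had 0 feedback inhibitors higher and 8 of 10 lower, and 0 of 7 targets higher and 6 lower, where 15.6% of all genes were called higher and 20.8% lower. Etv5 had 1.44 and 7.28 CPM there and was lower by 3.03 on the log2 scale (SE 0.41, edgeR adjusted p = 0.00066). Etv1 was lower by 5.36 (SE 0.32, edgeR adjusted p = 8.0e-06) and Spry4 by 4.80 (SE 0.39, edgeR adjusted p = 4.3e-05). Proximal tubule likewise had 0 feedback inhibitors higher and 8 lower, and 0 targets higher and 5 lower, beside 27.6% and 31.7% of all genes. Etv4 was at 0.915 and 1.42 CPM in the proximal tubule.

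In nephron progenitors 5 of 10 feedback inhibitors were higher and 2 lower, and 4 of 7 targets were higher and 0 lower. Of all genes, 27.1% were called higher and 32.4% lower in this class. Il17rd had 106 and 88.1 CPM and was higher by 1.45 (SE 0.096, edgeR adjusted p = 3.0e-06). Etv1 had 59.5 and 58.4 CPM and was higher by 2.16 (SE 0.097, edgeR adjusted p = 2.7e-07), and Myc, a growth regulator, was higher by 1.90 (SE 0.098, edgeR adjusted p = 6.1e-07). Spry1 was slightly lower in these cells, by 0.27 on the log2 scale (edgeR adjusted p = 0.030). In early nephron cells 6 inhibitors were higher and 3 lower, and 4 targets were higher and 1 lower. The shares of all genes called higher and lower in these cells were 24.2% and 29.4%. Il17rd had 182 and 166 CPM there and was higher by 2.57 (SE 0.11, edgeR adjusted p = 2.1e-14), while Spry4 was lower by 1.65 on the log2 scale (edgeR adjusted p = 1.5e-07). Etv5, at 60.1 and 62.0 CPM, was higher by 1.01 (edgeR adjusted p = 1.5e-08) and Etv4 by 0.82 (edgeR adjusted p = 1.4e-07).

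Stroma had 7 feedback inhibitors higher and 2 lower and 1 target higher and 2 lower, beside 23.5% and 29.6% of all genes. Mural cells had 6 higher and 1 lower and 3 targets higher and 1 lower, beside 13.8% and 20.7% of all genes. Spry4 had 28.8 and 30.3 CPM in stroma and 52.1 and 52.9 CPM in mural cells, where it was higher by 2.57 (SE 0.16, edgeR adjusted p = 3.1e-20). Il17rd was lower in both, by 2.66 in stroma (edgeR adjusted p = 4.3e-18) and by 2.15 in mural cells (edgeR adjusted p = 4.4e-15). Egr1, an immediate early gene that tissue dissociation is also known to induce, had 58.6 and 52.6 CPM in stroma and 107 and 99.6 CPM in mural cells. The part of dissociation in these levels was not tested. In endothelium and in immune cells the MAP kinase phosphatase gene Dusp6 was higher, by 1.51 (edgeR adjusted p = 4.1e-07) and 2.21 (edgeR adjusted p = 2.6e-32). The part of FGF signalling in these Dusp6 levels was not tested. Immune cells, with no member called higher, had 5 of 7 targets higher and 1 lower. They had 2 of 10 feedback inhibitors higher and 7 lower, beside 15.4% and 23.3% of all genes.

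**Figure D4:**
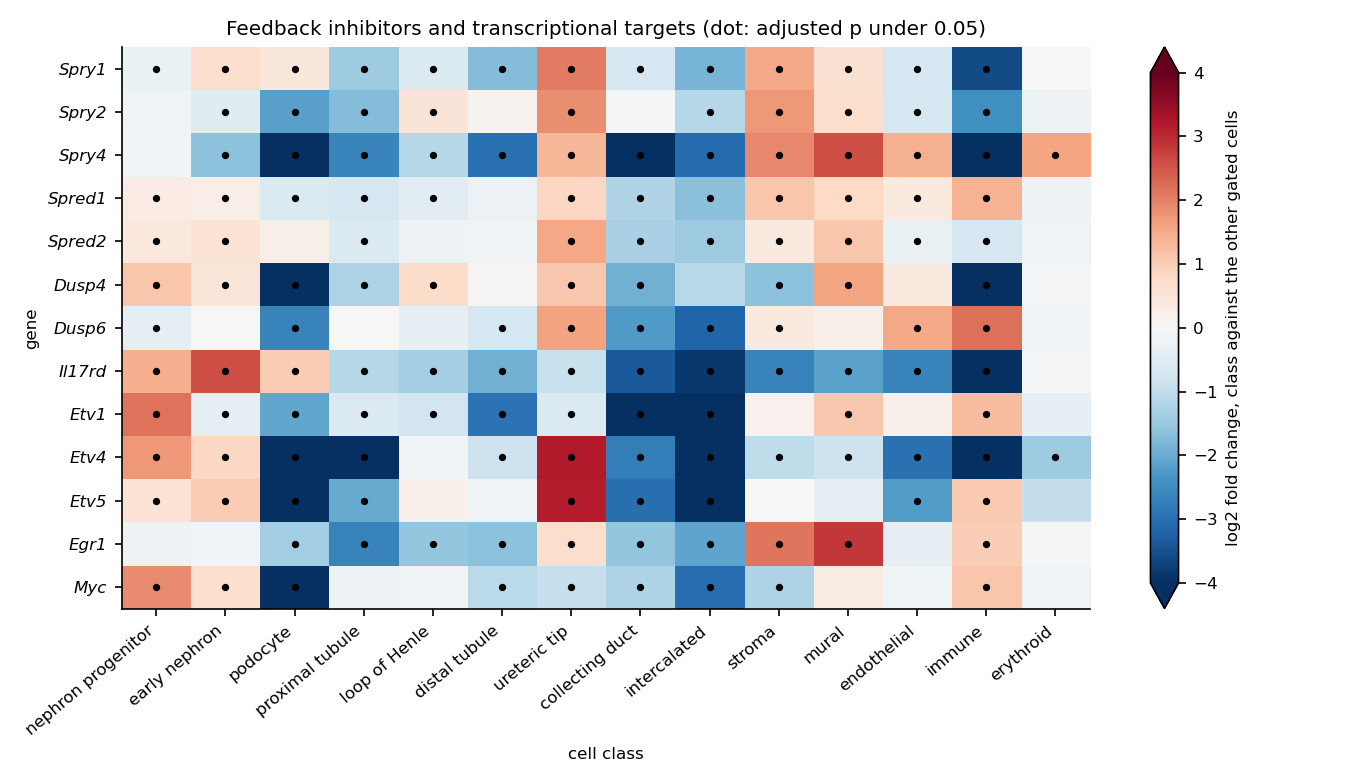
Difference of each class from the other gated cells (colour, log2 scale, limited to 4 in either direction) for feedback inhibitors and transcriptional targets (vertical axis) in 14 classes (horizontal axis). Dots mark an edgeR adjusted p under 0.05. Etv4, Etv5, Spry1 and Spry2 stood high in the ureteric tip, Il17rd in the early nephron and Spry4 and Egr1 in mural cells.

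Between the stroma subsets, 13 of 66 tested pathway genes were higher in Foxd1-positive cells and 6 were lower. Of all genes, 11.8% were called in either direction. The examples that follow were chosen after their values were seen. Etv4 was higher by 1.60, Egr1 by 1.67, Ier2 by 0.97, Dusp6 by 0.62 and Spred2 by 0.74. Of the other feedback inhibitors and targets, Spry1, Spry2, Spry4, Spred1, Spred3, Dusp4, Etv5 and Myc were not called. Il17rd (-0.68) and Etv1 (-0.18) were not called either. The heparan sulfate sulfatase gene Sulf2 was higher by 1.44 and the sulfotransferase gene Hs6st2 by 1.03. On the Penk-positive side, the receptor gene Fgfr3 was lower in Foxd1-positive cells by 1.09 on the log2 scale, and the heparan sulfate carrier gene Gpc4 by 0.89. Fgfr2 and Fgfr3 were thus both higher in the Penk-positive cells, and Fgfr1 in the Foxd1-positive cells.

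The members shared profiles to different degrees. Over the 14 class means of log2(CPM + 1), Fgf2 and Fgf7 had a Pearson correlation of 0.88, Fgfr1 and Fgfrl1 of 0.79, Fgf8 and Fgfrl1 of 0.73, and Fgf8 and Fgf10 of 0.66. These are descriptions, since the classes share libraries and differ in depth. Among all tested genes that were not markers, the profile most like Fgf2 was that of Tmem45a at 0.98, followed by Gli1, a Hedgehog target, at 0.97. Fgf7 was most like Zfp804a, Ntrk2 and Lmod1, each at 0.97 and each highest in mural cells, where the Fgf7 mean came from replicate 1. Fgf8 was most like Syt16 (0.95), Fgf9 most like Rab11fip4 (0.97) and Wfdc2 (0.95), and Fgf10 most like Gm14964 (0.95) and Nrxn2 (0.94). Fgf20 was most like Gm14858 and Gm47661, both at 0.95, and Fgf1 most like Ciart at 0.83, the lowest of the leading correlations. Among the receptors, Fgfr1 was most like Lrig3 (0.92), Fgfr2 most like Lcmt1 (0.95) and Fgfrl1 most like Fzd3 (0.94), which encodes a Wnt receptor.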

How the data were processed

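The study's single-cell suspensions of kidney were captured on 10x Chromium and sequenced from the 3′ end of the cDNA, per the labels' protocols. The deposited values are raw UMI counts per gene and barcode. Cell Ranger 6.0.1 and build mm10 are named in the submitters' processing notes, and the file headers give Cell Ranger version 4. The strand setting of the counting is not given in the sources used here.

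The 2 libraries form 1 group, numbered as deposited. Barcodes with at least 3000 UMIs, 500 genes and at most 20% mitochondrial UMIs were kept, and the cells with the highest Scrublet scores, 0.8% per 1000 cells, were removed (scanpy 1.11.5, Python 3.11.15). Each cell was scored for 17 marker lists (mean z score per list, limited to 4) and gated at a score of at least 0.5, a margin of 0.3 over the next list and 3 detected markers. A stricter gate used 1.0 and 0.6. Clusters came from 2000 variable genes without FGF members and pathway genes, 30 principal components, 15 neighbours and the Leiden method at resolution 2. They were named from the same markers. Of the gate's cells, from 62.5% (erythroid) to 99.7% (nephron progenitor) of a fitted class lay in clusters of its name. Clusters serve as description and were not tested.

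Counts were summed per library and class. Genes with at least 20 UMIs over both libraries were tested with edgeR 4.0.16 (R 4.3.3; trimmed-mean scaling, quasi-likelihood F tests, two-sided, library as a block). There was 1 fit per class against all other gated cells, 1 fit of all 28 sums for the 91 pairs of classes (13 residual degrees of freedom), and 1 fit for the stroma subsets. The fits per class and for the subsets each left 1 residual degree of freedom. Their p-values therefore rest largely on the spread that edgeR shares across genes. P-values were adjusted per contrast by Benjamini-Hochberg over the tested genes outside the marker lists, with a threshold of 0.05. All 10 members are described. Of each pathway list, a class names up to 2 genes in each direction, those with the largest change among calls alike in both libraries. For each member with at least 50 UMIs, the 3 genes with the most similar class profile were taken. Candidates were genes outside the marker lists with at least 20 UMIs. On simulated counts, the fit against the other cells recovered 89.8% of 2-fold and 100% of 4-fold changes with 6 false calls among 20435 genes. The fit of pairs recovered 92.9% and 100% with 10 false calls among 20422 genes. The simulated counts had the same spread for every gene and no difference between libraries. Only genes with expected counts well above the minimum of 20 UMIs were changed. These rates may therefore not hold for sparse genes or for the real libraries. Poisson and binomial intervals cover counting error only, at 95%. The members, lists and rules were chosen with earlier results of these data known. The same replicate number marks sums from 1 library, so the library block pairs them by design. Alternatives were DESeq2 1.42.0, other scaling, filters, gates and cell rules, subtraction of free RNA, no block and single libraries. Free RNA was read from barcodes with under 100 UMIs. Trimmed-mean scaling moved the median log2 difference over all genes, relative to UMI totals, by -0.03 (ureteric tip) to 0.81 (erythroid), and changes are relative to it. Urothelium, with 14 and 8 cells, stayed out of the tests.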

Additional observations from a re-analysis of the deposited data

Results flagged for a closer look

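Urothelium, the lining of the renal pelvis and ureter, had too few cells for the tests, 14 in replicate 1 and 8 in replicate 2, and 2 members had a signal there above the level of free RNA in both libraries. Fgf1 had a mean of 47.7 CPM, from 11 UMIs (34.9 CPM) and 16 UMIs (60.6 CPM), beside 29.4 and 18.2 CPM in free RNA. Fgfr2 had a mean of 152.8 CPM, from 45 UMIs (143 CPM) and 43 UMIs (163 CPM), beside 142 and 135 CPM in free RNA. In replicate 1 both lay close to the free RNA level. Fgf2, Fgf7, Fgf8, Fgf10 and Fgf20 had 0 UMIs in these cells in both libraries, Fgf9 had 1 UMI and Fgfrl1 had 4. None of these values was tested.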

How the results depend on the processing

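The number of calls of members by class ranged from 72 to 109 over the alternatives (105 as reported), that between pairs from 452 to 501 (495), that of pathway genes from 457 to 614 (593) and that between stroma subsets from 1 to 3 (3), with 1 without the replicate block. Single libraries give no counts of calls, as they leave no residual degrees of freedom. Of the 36 called single values, 382 of 384 tested alternatives kept the direction and 19 lost the call, and 72 of 72 single-library values kept the direction. Calls were lost for Fgf7 in mural cells under DESeq2 (2.14, adjusted p = 0.088), for Fgf8 in ureteric tip under DESeq2 (0.76, adjusted p = 0.22), free RNA subtraction (0.74, adjusted p = 0.068) and without the replicate block (0.82, adjusted p = 0.099), for Fgf9 between loop of Henle and distal tubule under DESeq2 (1.03, adjusted p = 0.12) and for Fgfrl1 in ureteric tip under DESeq2 (adjusted p = 0.13) and Leiden classes (adjusted p = 0.089). Values that changed sign were Fgf1 in endothelium and in endothelium against loop of Henle under the stricter gate (-0.067 and -0.075), Fgf7 in mural cells without the Actg2 cluster (-1.06), Fgf7 in mural cells against stroma under the stricter gate (-0.69), without that cluster (-2.98) and without replicate 1 (-1.10, and 1.33 without replicate 2), and Fgf7 between stroma subsets at 6000 UMIs (-0.17), with doublets kept (-0.016), without the replicate block (-0.11) and without replicate 2 (-0.60, and 0.96 without replicate 1). Further, Fgf8 in ureteric tip under Leiden classes (-1.06, adjusted p = 0.039) and nephron progenitors against tip without replicate 1 (-0.067, and 0.90 without replicate 2), Fgf10 in early nephron against proximal tubule with UMI totals (0.19), the stricter gate (0.35) and without replicate 2 (0.23), Fgf10 between stroma subsets without replicate 2 (-0.25, and 1.93 without replicate 1), Fgf20 in loop of Henle against the mean of the other classes (0.94), Fgfr1 in early nephron against podocytes (-0.083), Fgfrl1 in early nephron against nephron progenitors (-0.076) and in tip against podocytes (-0.14) under Leiden classes, Fgfr2 in intercalated cells without replicate 1 (-0.029, and 0.59 without replicate 2), and Fgfr2 in intercalated against early nephron cells with UMI totals (-0.0099), the stricter gate (-0.15) and without replicate 1 (-0.33, and 0.28 without replicate 2). The causes were not tested. Depth limits Fgf7 and Fgf20, with 293 and 393 UMIs in all.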

Other observations

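Other genes of the FGF family were also called in single classes. Fgf15, a gut hormone in the adult, was higher in early nephron cells by 5.71 (SE 0.51, edgeR adjusted p = 3.6e-09) at 2.54 and 5.41 CPM, from 42 and 54 UMIs. Fgf18 was higher in ureteric tip by 2.35 (SE 0.49, edgeR adjusted p = 0.00046), in stroma by 2.46 (SE 0.39, edgeR adjusted p = 1.8e-06) and in early nephron cells by 1.74 (SE 0.38, edgeR adjusted p = 0.00047), each under 6 CPM. Fgf12, an intracellular FGF that is not secreted and binds sodium channels, had 252 and 168 CPM in the ureteric tip and was higher there by 4.39 (SE 0.13, edgeR adjusted p = 1.0e-17). Fgfr3 had 26.9 and 37.0 CPM in the proximal tubule, higher by 3.10 (SE 0.15, edgeR adjusted p = 2.9e-09), and Fgfr4 had 83.3 and 103 CPM there, higher by 2.34 (SE 0.10, edgeR adjusted p = 1.2e-09). Fgfr4 was also higher in early nephron cells by 0.96 and in podocytes by 0.98 (edgeR adjusted p = 4.7e-08 and 3.2e-09). Kl, the gene of the FGF23 co-receptor Klotho, had 498 and 639 CPM in the distal tubule (higher by 3.97, SE 0.21, edgeR adjusted p = 4.6e-76) and 490 and 253 CPM in intercalated cells (higher by 2.80, SE 0.16, edgeR adjusted p = 2.5e-63). The intercalated class also had 2274 and 1217 CPM of summed distal tubule markers and 1946 and 1292 CPM of collecting duct markers, and their part in the Kl level was not tested.

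Of 19 heparan sulfate genes, 7 were higher and 9 lower in stroma, 7 and 8 in nephron progenitors, 7 and 9 in podocytes and 4 and 12 in proximal tubule. Of 6 tested receptor-binding membrane proteins, 1 was higher and 4 lower in stroma and 4 and 2 in the loop of Henle. Shares of all genes called higher and lower were 23.5% and 29.6% in stroma, 27.1% and 32.4% in nephron progenitors, 21.6% and 29.7% in podocytes, 27.6% and 31.7% in proximal tubule and 22.2% and 25.6% in the loop of Henle. Gpc3 had 2584 and 3172 CPM in stroma and was higher by 2.96 (SE 0.19, edgeR adjusted p = 2.6e-15). Gpc6 had 2284 and 2485 CPM in nephron progenitors, higher by 1.96 (SE 0.054, edgeR adjusted p = 2.8e-08), and Gpc4 had 675 and 468 CPM in proximal tubule, higher by 3.73 (SE 0.13, edgeR adjusted p = 1.3e-10). Podocytes had 123 and 162 CPM of Gpc1, higher by 3.86 (SE 0.12, edgeR adjusted p = 1.6e-35). In endothelium Flrt3 had 113 and 111 CPM, higher by 4.65 (SE 0.12, edgeR adjusted p = 6.5e-10), and 12 of 18 adaptor and relay genes were higher and 0 lower, beside 24.8% and 30.9% of all genes. In the loop of Henle, where Fgf9 was highest, Fgfbp1, a carrier that releases FGF ligands from the matrix, had 39.1 and 62.5 CPM and was higher by 3.88 (SE 0.17, edgeR adjusted p = 9.7e-07).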
